A study of Arabidopsis thaliana with 18 samples.

Results

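Leaves of the Arabidopsis thaliana line ERDL4-overexpressor 2 were compared with leaves of the line ERDL4-overexpressor 1, with 3 libraries each. These are 6 of the 18 libraries of the series, and all genes with enough counts for a test were included, 18703 of the 32833 genes in the count table. Both lines are in the accession Col-0 and, by their name, carry extra expression of ERDL4 (AT1G19450). Wild-type Col-0 leaves, also with 3 libraries, give the level without overexpression. All 3 groups were leaf tissue of 4-week-old plants grown at 21 °C with 10 h of light and 14 h of dark, with no treatment. For the lines, the sources used here name neither the promoter that drives ERDL4 nor the insertion sites, and they leave out how many plants went into a library. The 3 libraries of a group are labelled as biological replicates without saying how the plants were split, so p-values measure the spread between these libraries, which may be technical.

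ERDL4 belongs to the ERD6-like family of sugar carriers and sits in the vacuolar membrane. The vacuole stores most of the soluble sugar of a leaf cell. Carriers of the TST family load it, while exporters such as ERDL6 return hexoses to the cytosol, where hexokinase HXK1 and other proteins take part in sugar signalling. Sugar supply to the cytosol is known in Arabidopsis to act on photosynthesis genes, starch enzymes and anthocyanin synthesis. Transgenic lines of 1 gene commonly differ in transgene level and insertion site, and the comparison of the lines asks which transcripts differ between them.

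The deposited values are whole read counts per gene. Levels below are CPM, the counts scaled to a common library size with the trimmed mean of M values (TMM), and differences are log2 fold changes of overexpressor 2 over overexpressor 1 with an approximate standard error (SE) derived from the test statistic. A gene was called when its adjusted p from the quasi-likelihood test of edgeR was under 0.05. The overexpressor 2 libraries held 17318810, 17519589 and 17473651 counts, against 24701667, 26157641 and 23268052 counts in overexpressor 1. Depth thus differed between the lines in every library. The wild-type libraries held 22613250, 19429580 and 23806098 counts. Within each line, replicates 2 and 3 were much closer to each other than either was to replicate 1. The chi-square of the counts over genes, divided by its degrees of freedom, was 1.701 for them in overexpressor 2 and 2.07 in overexpressor 1, against 27.5 to 66.1 for the line's other pairs and 13.8 to 55.0 in wild type. They differed by more than counting noise, so they were kept as separate libraries, and results are also given with each such pair summed into 1 library. Replicate 1 stood apart in both lines. In overexpressor 2 replicate 1, 280 genes were at least 2-fold away from both other libraries of the line, and in overexpressor 1 replicate 1 there were 672 such genes. In each of the other 4 libraries there were 3 to 9 such genes.

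Few genes passed the test between the lines. Of 18703 genes, 10 were called, which is 0.0535%. The 6 called genes that were higher in overexpressor 2 make up 0.0321% and the 4 that were lower make up 0.0214%. At an unadjusted p under 0.05 there were 2738 genes, of which 1526 were higher and 1212 lower. At an adjusted p under 0.1 there were 96 genes, and the smallest adjusted p was 0.0088. The median log2 fold change of all tested genes was -0.01 and the median size was 0.17. Of the tested genes 90% differed by at most 0.57 in size and 99% by at most 1.34. In 2481 genes (13.3%) all overexpressor 2 libraries were above all overexpressor 1 libraries, and in 2121 genes (11.3%) all were below.

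**Figure D1:**
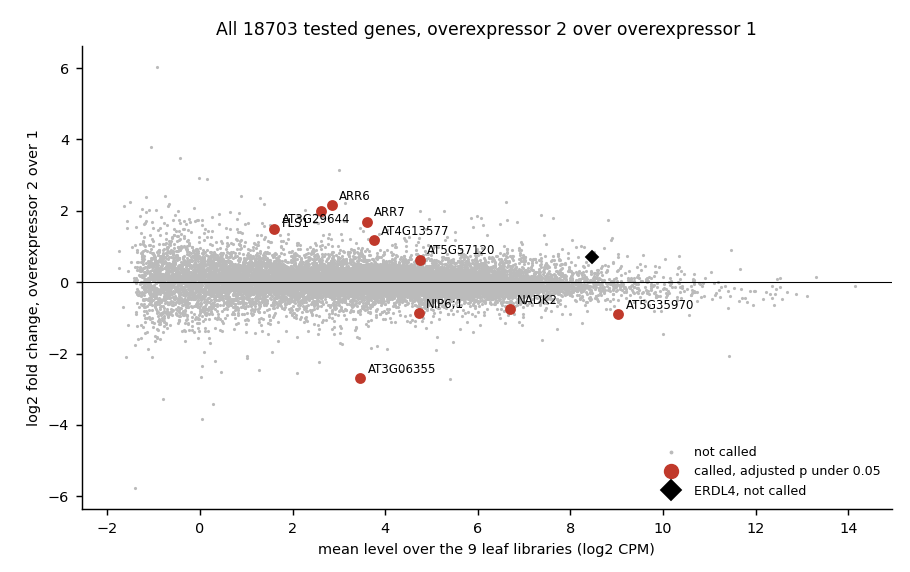
Log2 fold change of overexpressor 2 over overexpressor 1 (vertical axis) against the mean level over the 9 leaf libraries in log2 CPM (horizontal axis), 1 point per tested gene, with the 10 called genes in red and ERDL4 as a black diamond. The called genes run from -2.69 for AT3G06355 to 2.16 for ARR6. Of all tested genes 99% differed by at most 1.34 in size, and many genes beyond that were not called.

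The number of called genes depended on which libraries entered the fit. Without overexpressor 2 replicate 1 there were 81 higher and 90 lower genes, without replicate 2 there were 0 and 0, and without replicate 3 there were 1 and 1. Without overexpressor 1 replicate 1 there were 19 higher and 11 lower genes, without replicate 2 there were 0 and 1, and without replicate 3 there were 0 and 0. Without wild-type replicate 1 there were 0 and 1, without replicate 2 there were 342 (1.8%) and 150 (0.791%), and without replicate 3 there were 2 and 1. These 9 fits had 1821 to 3474 genes at an unadjusted p under 0.05. When replicates 2 and 3 of each line were counted as 1 library, edgeR called 0 genes, with 1244 at an unadjusted p under 0.05. With the libraries of the lines alone it called 73 higher and 18 lower genes, which is 0.402% and 0.0992% of those tested. With all 18 libraries it called 73 (0.372%) and 91 (0.464%), and DESeq2 called 410 (2.85%) and 310 (2.15%). None of the edgeR calls described below held when the close replicates were summed.

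**Figure D2:**
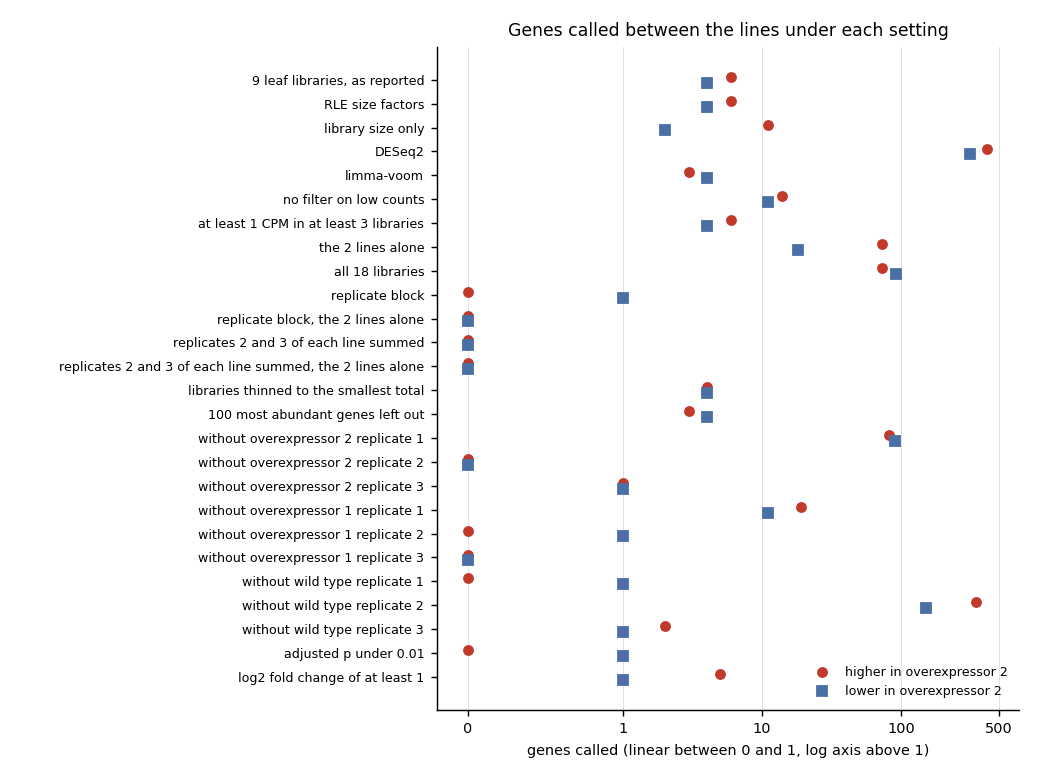
Number of genes called higher (red circles) and lower (blue squares) in overexpressor 2 than in overexpressor 1 under each setting, on an axis that is linear between 0 and 1 and logarithmic above 1. Counts run from 0 where close replicates are summed to 410 higher and 310 lower with DESeq2.

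ERDL4, the gene the lines are named for (chromosome 1, 6731411 to 6735024, minus strand, 17 exons, RefSeq TAIR10.1), stood higher in overexpressor 2 than in overexpressor 1. It had 604, 578 and 568 CPM in overexpressor 2 leaves, against 350.2, 355 and 359 CPM in overexpressor 1 leaves and 124, 111 and 152 CPM in wild-type leaves. The 3 groups did not overlap, and every library of both lines was above every wild-type library. The log2 fold change between the lines was 0.72 ± 0.13, a ratio of 1.64, and it missed the threshold at an adjusted p of 0.0782. Over 23 alternatives its log2 fold change stayed positive, its adjusted p ranged from 9.14e-06 to 0.769, and it passed the threshold in 5 of 23. Reads of the transgene and of the native gene cannot be told apart in these counts, and reads shared with the close copy ERDL6 could be split between them.

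No vacuolar sugar carrier passed the test. ERDL6, the vacuolar glucose exporter, had 71.2, 41.0 and 42.5 CPM in overexpressor 2, against 34.9, 43.9 and 40.0 CPM in overexpressor 1, and only replicate 1 of overexpressor 2 was above all overexpressor 1 libraries. TST2, a main loader of vacuolar sugar in leaves, had 152, 240.5 and 239 CPM in overexpressor 2, against 135, 225 and 219 CPM in overexpressor 1, with replicate 1 the low library in both lines. The log2 fold changes of the other carriers were 0.02 ± 0.18 for TST1, 0.01 ± 0.10 for VGT1 and 0.10 ± 0.19 for the sucrose exporter SUC4. SWEET2 had 4.48, 2.33 and 1.82 CPM in overexpressor 2, against 5.14, 3.82 and 3.04 CPM in overexpressor 1. Its log2 fold change of -0.48 ± 0.36 was -0.95 without overexpressor 2 replicate 1, -0.24 without replicate 3 of that line and -0.27 without overexpressor 1 replicate 1. Those of the fructose facilitators SWEET16 and SWEET17 were 0.35 ± 0.30 and 0.00 ± 0.15. Adjusted p-values of these 8 carriers lay between 0.437 and 0.993. Of 16 vacuolar carriers listed and tested, 0 were called in either direction, beside 0.0535% of all tested genes. These 16 include ERDL4 itself. Without overlap 1 was higher, which was ERDL4, and 1 lower, beside 13.3% and 11.3% of all tested genes. DESeq2 called 1 higher, again ERDL4, beside 2.85% of all genes it tested. The median log2 fold change of the list was 0.01.

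No gene tied to fructose or glucose sensing passed either. FINS1, the cytosolic fructose-1,6-bisphosphatase known from a fructose-insensitive mutant, had 159, 163 and 164 CPM in overexpressor 2, against 224, 179 and 170.2 CPM in overexpressor 1 and 351, 272 and 333 CPM in wild type. All overexpressor 2 libraries were below all overexpressor 1 libraries, but the log2 fold change of -0.24 ± 0.14 did not pass (adjusted p = 0.465). The hexokinase sensor HXK1 differed by -0.01 ± 0.09 and the fructose-sensitivity factor ANAC089 by -0.06 ± 0.20, with adjusted p-values of 0.97 and 0.929. The signs of TST1, TST2, VGT1, SWEET17, HXK1 and ANAC089 changed between settings, so no direction is read from them.

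Of the called genes, 2 are cytokinin response genes, both higher in overexpressor 2. Type-A response regulators (ARR) are switched on within minutes to hours of cytokinin sensing and in turn dampen the pathway. ARR7 (AT1G19050, chromosome 1, 6577833 to 6579314, minus strand, 5 exons) had 14.2, 14.0 and 15.1 CPM in overexpressor 2, against 4.55, 4.26 and 4.62 CPM in overexpressor 1 and 18.8, 12.3 and 21.2 CPM in wild type. The lines did not overlap, and the overexpressor 2 libraries lay within the wild-type range, while the overexpressor 1 libraries lay below every other library. ARR7 rose by 1.69 ± 0.18 (ratio 3.23, adjusted p = 0.0293). ARR6 (AT5G62920, chromosome 5, 25252007 to 25254318, minus strand, 5 exons) had 6.00, 6.11 and 7.21 CPM in overexpressor 2, against 1.49, 1.62 and 1.21 CPM in overexpressor 1 and 15.8, 7.95 and 17.56 CPM in wild type. All overexpressor 2 libraries were above all overexpressor 1 libraries and below all wild-type libraries. ARR6 rose by 2.16 ± 0.29 (ratio 4.46, adjusted p = 0.0461). The adjusted p was 0.745 for ARR7 and 0.752 for ARR6 with replicates 2 and 3 of each line summed, and each gene kept its direction. ARR6 overlaps AT5G62910 on the other strand by 348 bases, and with the strand setting of the counting not given, reads of that overlap cannot be assigned.

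The promoters of ARR7, ARR6 and the called flavonol gene FLS1 are shown because these are the 3 called genes that belong to a gene list. Each is the 250 bases before the annotated start, 5′ to 3′ on the gene's strand, read from the RefSeq TAIR10.1 genome. The coordinates are chr1:6579315-6579564 (minus strand), chr5:25254319-25254568 (minus strand) and chr5:2803583-2803832 (plus strand). Capitals mark AGATCT and AGATT, known as binding cores of type-B response regulators, on either strand.
ARR7: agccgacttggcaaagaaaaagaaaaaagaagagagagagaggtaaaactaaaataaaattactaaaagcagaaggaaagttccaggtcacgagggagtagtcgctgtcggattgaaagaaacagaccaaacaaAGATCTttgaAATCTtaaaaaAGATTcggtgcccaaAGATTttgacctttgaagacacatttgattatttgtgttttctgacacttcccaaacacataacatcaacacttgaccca
ARR6: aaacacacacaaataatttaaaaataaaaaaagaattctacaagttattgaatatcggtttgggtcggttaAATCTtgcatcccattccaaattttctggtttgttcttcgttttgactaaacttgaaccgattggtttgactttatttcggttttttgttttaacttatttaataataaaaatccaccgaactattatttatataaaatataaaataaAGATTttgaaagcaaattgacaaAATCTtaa
FLS1: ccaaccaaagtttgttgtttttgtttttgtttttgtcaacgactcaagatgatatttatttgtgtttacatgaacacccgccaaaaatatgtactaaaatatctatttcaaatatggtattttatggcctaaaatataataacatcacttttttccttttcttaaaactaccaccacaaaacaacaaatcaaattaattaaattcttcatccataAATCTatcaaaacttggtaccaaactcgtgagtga
AGATCT stood 1 time in the ARR7 window and 0 times in the windows of ARR6 and FLS1, and 5.98% of 27443 protein-coding promoters of that length hold it. AGATT, or AATCT on the other strand, stood 3 times in ARR7, 3 times in ARR6 and 1 time in FLS1, and 63.7% of the promoters hold it. Neither motif contains the other. The G-box CACGTG (6.49% of promoters) and the MYB-type AC element ACCTACC (1.16%) were in none of the 3 windows on either strand.

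The other type-A regulators did not pass, although most stood higher in overexpressor 2. ARR4 had 90.5, 65.9 and 65.5 CPM in overexpressor 2, against 60.8, 42.8 and 41.9 CPM in overexpressor 1 (adjusted p = 0.282). ARR16 had 2.41, 4.404 and 4.46 CPM in overexpressor 2, against 2.79, 1.29 and 1.58 CPM in overexpressor 1, where replicate 1 overlapped the other line. Of 9 type-A regulators listed, 8 were tested, 2 were called higher, beside 0.0321% of all tested genes, and 0 lower. In 5 of the 8 the lines did not overlap, all higher in overexpressor 2, beside 13.3% of all tested genes. The median log2 fold change was 0.80, against -0.01 over all tested genes. The median was 0.87 without overexpressor 1 replicate 1 and 0.84 without overexpressor 2 replicate 1. Summed over the list, levels were 129 to 158 CPM in overexpressor 2 and 85.4 to 102 CPM in overexpressor 1. In wild type they were 154 to 248 CPM, so overexpressor 1 was the lowest group and overexpressor 2 was not raised above wild type. CRF11, by its symbol a cytokinin response factor, which was picked after its values were seen, had 16.6, 19.4 and 18.1 CPM in overexpressor 2, against 10.9, 11.0 and 11.6 CPM in overexpressor 1 (log2 fold change 0.69 ± 0.10, adjusted p = 0.0517).

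**Figure D3:**
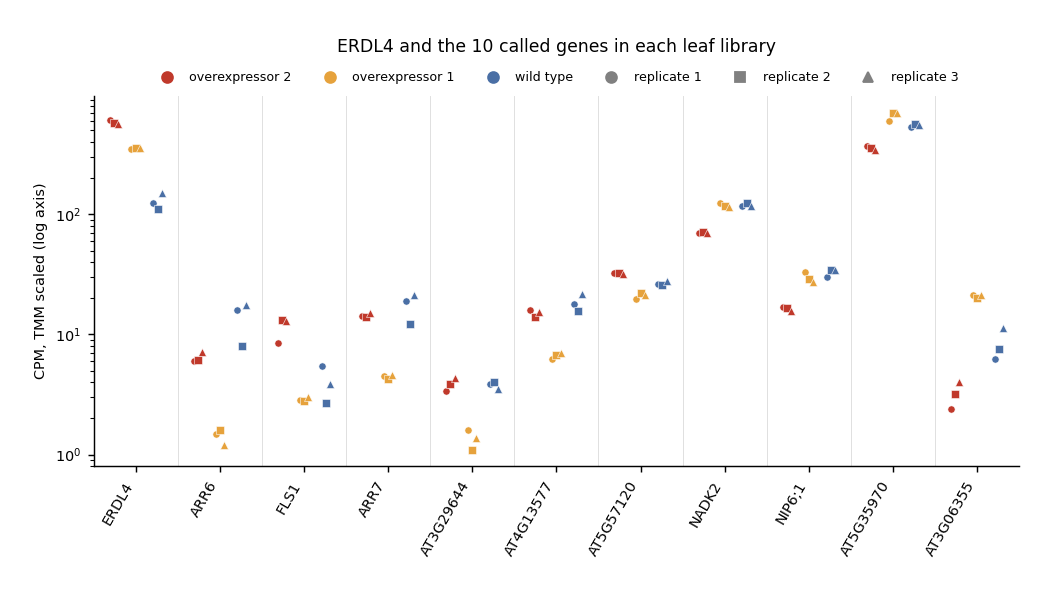
CPM of ERDL4 and the 10 called genes in each of the 9 leaf libraries on a logarithmic axis, with overexpressor 2 in red, overexpressor 1 in orange and wild type in blue, and marker shape for the replicate. For each gene the libraries of the lines do not overlap, and for ARR6, ARR7, AT3G29644 and AT4G13577 the overexpressor 1 libraries lie below those of both other groups.

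Of the flavonoid genes, edgeR called only FLS1. FLS1 (AT5G08640, chromosome 5, 2803833 to 2805606, plus strand, 3 exons) encodes flavonol synthase 1, which turns dihydroflavonols into flavonols. It had 8.52, 13.2 and 12.9 CPM in overexpressor 2, against 2.83, 2.79 and 3.04 CPM in overexpressor 1 and 5.44, 2.68 and 3.85 CPM in wild type. Every overexpressor 2 library was above every library of the other groups. FLS1 rose by 2.00 ± 0.26 (ratio 4.00, adjusted p = 0.035), and its adjusted p was 0.752 with the close replicates summed.

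Most of the other flavonoid genes stood higher in overexpressor 2 without passing the test gene by gene. CHS, chalcone synthase at the pathway's entry, had 1170.3, 924 and 912 CPM in overexpressor 2, against 92.0, 404 and 406 CPM in overexpressor 1 and 65.5, 15.9 and 58.2 CPM in wild type. Overexpressor 1 replicate 1 was far below the line's other libraries, and the log2 fold change of 1.74 ± 0.62 had an adjusted p of 0.254. DFR, which commits dihydroflavonols to anthocyanin, had 431, 476 and 465 CPM in overexpressor 2, against 54.1, 170.4 and 168 CPM in overexpressor 1 and 0.41, 4.16 and 0.0986 CPM in wild type. It showed the same low replicate 1 (log2 fold change 1.804 ± 0.71, adjusted p = 0.297). LDOX, the anthocyanidin synthase, had 412, 375 and 376 CPM in overexpressor 2, against 43.3, 134 and 141 CPM in overexpressor 1.

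PAL1, the first step of phenylpropanoid synthesis, had 219.6, 199.9 and 203 CPM in overexpressor 2, against 70.8, 112 and 113 CPM in overexpressor 1, with a log2 fold change of 1.07 ± 0.19 (adjusted p = 0.0782). PAL2, picked after its values were seen, had 195, 159 and 165 CPM in overexpressor 2, against 60.4, 90.7 and 85.4 CPM in overexpressor 1 (adjusted p = 0.0782). F3'H, which adds the hydroxyl group that leads to quercetin and cyanidin, had 106, 82.6 and 83.5 CPM in overexpressor 2, against 7.54, 29.2 and 31.6 CPM in overexpressor 1. Its adjusted p was 0.115 with all libraries and 0.0177 without overexpressor 1 replicate 1. The lines did not overlap in these genes, and overexpressor 1 replicate 1 was the low library of its line in each.

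The sugar-adding and transport steps followed the same order. The glycosyltransferases UF3GT and UGT75C1 had log2 fold changes of 1.79 ± 0.43 and 1.73 ± 0.36, and GSTF12, needed to move anthocyanins into the vacuole, had 1.68 ± 0.53. Their adjusted p-values were 0.121, 0.112 and 0.202. The regulators divided. The bHLH factor TT8 had 17.5, 16.99 and 17.65 CPM in overexpressor 2, against 3.14, 10.2 and 9.48 CPM in overexpressor 1, and the flavonol regulator MYB111 had 1.68, 2.18 and 3.74 CPM in overexpressor 2, against 0.196, 0.955 and 0.998 CPM in overexpressor 1. The anthocyanin MYB factor PAP1 had 214, 166 and 169.7 CPM in overexpressor 2, against 68.9, 169.9 and 160.4 CPM in overexpressor 1, so replicates 2 and 3 were level between the lines and only overexpressor 1 replicate 1 was low. PAP2 showed the same overlap, with 49.7, 26.9 and 26.1 CPM in overexpressor 2, against 9.62, 31.8 and 33.6 CPM in overexpressor 1.

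Of 23 flavonoid genes listed, 20 were tested, 1 was called higher, beside 0.0321% of all tested genes, and 0 lower. In 13 of the 20 the lines did not overlap, all with overexpressor 2 above, beside 13.3% of all tested genes. The list's median log2 fold change was 1.43, against -0.01 over all tested genes. It was 1.09 without overexpressor 1 replicate 1, where edgeR called FLS1 and F3'H, and 1.397 without overexpressor 2 replicate 1. DESeq2 called 7 higher, beside 2.85% of all genes it tested, and the fit with close replicates summed called 0.

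**Figure D4:**
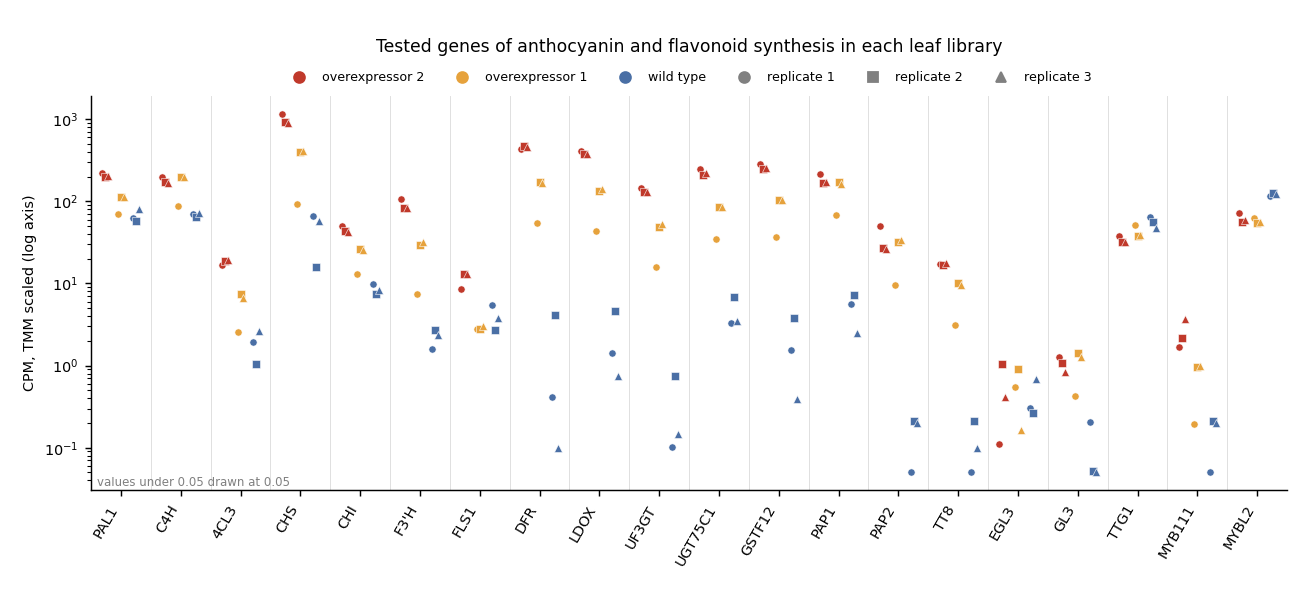
CPM of the 20 tested genes of anthocyanin and flavonoid synthesis in each of the 9 leaf libraries on a logarithmic axis, with overexpressor 2 in red, overexpressor 1 in orange and wild type in blue, and marker shape for the replicate. In most enzymes all red points lie above all orange points, with the orange circle, overexpressor 1 replicate 1, the lowest of its line. In FLS1 the 3 orange points lie together.

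The other 3 called genes that were higher in overexpressor 2 are outside the gene lists and were picked after their values were seen. AT4G13577 (chromosome 4, 7895719 to 7898499, minus strand, 2 exons), annotated as an uncharacterized protein, had 15.9, 14.0 and 15.5 CPM in overexpressor 2, against 6.24, 6.72 and 7.03 CPM in overexpressor 1 and 18.003, 15.6 and 21.7 CPM in wild type. It rose by 1.18 ± 0.14 (adjusted p = 0.0293). AT4G13572, a nearby uncharacterized gene on the same chromosome, had 21.4, 23.7 and 23.3 CPM in overexpressor 2, against 14.3, 15.0 and 14.5 CPM in overexpressor 1, and did not pass (adjusted p = 0.0628). AT3G29644 (chromosome 3, 11498879 to 11501424, minus strand, 3 exons), annotated as a long noncoding RNA, had 3.36, 3.89 and 4.31 CPM in overexpressor 2, against 1.61, 1.102 and 1.37 CPM in overexpressor 1 and 3.90, 4.00 and 3.55 CPM in wild type. It rose by a ratio of 2.83 (adjusted p = 0.0461) on 218 counts summed over overexpressor 2 and 104 over overexpressor 1. It overlaps the pseudogene AT3G29642 on the other strand by 471 bases. In both genes every overexpressor 1 library was below every library of overexpressor 2 and of wild type.

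AT5G57120 (chromosome 5, 23122488 to 23124594, minus strand, 6 exons), annotated as a nucleolar and coiled-body phosphoprotein, had 32.4, 32.7 and 32.2 CPM in overexpressor 2, against 19.7, 22.0 and 21.5 CPM in overexpressor 1 and 26.2, 25.9 and 27.9 CPM in wild type. The 3 groups did not overlap, with wild type between the lines. It rose by 0.62 ± 0.09 (ratio 1.54, adjusted p = 0.0461), a small change beside a narrow spread.

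Other genes of the nucleolus stood higher in overexpressor 2 but were not called. FIB2, a fibrillarin of the machinery that methylates ribosomal RNA, had 11.4, 17.36 and 16.1 CPM in overexpressor 2, against 4.67, 8.49 and 6.32 CPM in overexpressor 1 (adjusted p = 0.108). CBF5, the pseudouridine synthase that modifies ribosomal RNA, had 54.2, 72.2 and 73.1 CPM in overexpressor 2, against 35.9, 42.5 and 39.8 CPM in overexpressor 1 (adjusted p = 0.103). Nucleolin NUC1 had 354, 426 and 449.7 CPM in overexpressor 2, against 219, 304 and 304 CPM in overexpressor 1, and NOP56 had 62.7, 70.2 and 74.2 CPM in overexpressor 2, against 41.3, 52.2 and 52.1 CPM in overexpressor 1. Of 9 ribosome biogenesis genes listed and tested, 0 were called, and in 8 the lines did not overlap, all with overexpressor 2 above, beside 13.3% of all tested genes. The median log2 fold change was 0.51, and DESeq2 called 6 of them higher, beside 2.85% of all genes it tested.

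Of the 4 called genes that were lower in overexpressor 2, NADK2 and NIP6;1 have known products. NADK2 (AT1G21640, chromosome 1, 7588414 to 7592890, plus strand, 8 exons) encodes the chloroplast NAD kinase, which makes the NADP that photosynthesis reduces. It had 69.8, 70.8 and 70.0 CPM in overexpressor 2, against 124, 117 and 115 CPM in overexpressor 1 and 117, 125 and 117 CPM in wild type. Overexpressor 1 and wild type overlapped, and overexpressor 2 lay below both. The log2 fold change was -0.76 ± 0.09 (adjusted p = 0.0293), and the annotated NADK2 overlaps SECA2 on the other strand by 227 bases. NIP6;1 (AT1G80760, chromosome 1, 30350539 to 30352208, minus strand, 5 exons), a boric acid channel, had 16.9, 16.5 and 15.7 CPM in overexpressor 2, against 33.4, 28.7 and 27.5 CPM in overexpressor 1 and 30.0, 34.6 and 34.7 CPM in wild type. Overexpressor 2 again lay below both other groups (log2 fold change -0.87 ± 0.11, adjusted p = 0.0299).

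The remaining called genes that fell were picked after their values were seen. AT5G35970 (chromosome 5, 14118755 to 14123362, minus strand, 7 exons), annotated as a P-loop nucleoside triphosphate hydrolase, had 370.4, 354 and 343 CPM in overexpressor 2, against 597, 704 and 694 CPM in overexpressor 1 and 529.6, 569.8 and 553 CPM in wild type. Its log2 fold change was -0.90 ± 0.11 (adjusted p = 0.0299), and wild type lay between the lines. AT3G06355 (chromosome 3, 14199575 to 14200076, plus strand, 1 exon), annotated as a long noncoding RNA, had 2.41, 3.21 and 4.05 CPM in overexpressor 2, against 21.3, 20.3 and 21.1 CPM in overexpressor 1 and 6.21, 7.58 and 11.3 CPM in wild type. Its log2 fold change of -2.69 ± 0.24 had the smallest adjusted p of all genes, 0.0088, and wild type again lay between the lines. It overlaps the 5.8S ribosomal RNA gene AT3G41979 on the same strand by 164 bases, and that gene is listed at 0 in every leaf library. Ribosomal RNA genes exist in many near-identical copies, so the assignment of these reads is uncertain, and how they reached the libraries was not tested.

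The calls held in different numbers of alternative settings. AT3G06355 was called in 18 of 23, ARR7 in 14 of 23, AT4G13577 in 14 of 23, AT5G35970 in 13 of 23, FLS1 in 12 of 23 and NADK2 in 12 of 23. NIP6;1 was called in 11 of 23, ARR6 in 10 of 23, AT5G57120 in 9 of 23 and AT3G29644 in 9 of 22. All 10 kept their direction in each of these settings. Without overexpressor 1 replicate 1, ARR6 and AT5G57120 had adjusted p-values of 0.0681 and 0.0681, and the other 8 were called.

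The called genes were spread over the genome. There were 3 on chromosome 1, 2 on chromosome 3, 1 on chromosome 4 and 4 on chromosome 5, with at most 1 in any window of 1000000 bases, and no 2 neighbouring tested genes were called. Within 200 kb of ERDL4, 82 genes were tested and 1 was called, ARR7, whose end lies 152 kb from the start of ERDL4 in the annotation. In that region 11% of genes were higher and 15.9% lower without overlap, beside 13.3% and 11.3% of all tested genes, and the median log2 fold change was 0.05. Of all tested genes 0.0535% were called. Over all genes of the count table, 0 had 3 counts or fewer summed over 1 line and a mean of at least 1 CPM in the other.

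Sulfur shortage genes included 6 of 11 tested members that were higher in overexpressor 2 without overlap, beside 13.3% of all tested genes. Of the list edgeR called 0 and DESeq2 called 3 higher, beside 2.85% of all genes it tested, and the median was 0.54. SDI1, a repressor of glucosinolate synthesis in sulfur-poor plants, had 17.2, 17.36 and 19.5 CPM in overexpressor 2, against 8.48, 8.41 and 8.32 CPM in overexpressor 1 and 3.85, 7.79 and 1.18 CPM in wild type. SDI2 had 40.4, 35.1 and 36.4 CPM in overexpressor 2, against 26.3, 25.5 and 24.9 CPM in overexpressor 1, and its adjusted p of 0.0858 was the nearest of the list to the threshold. GGCT2-1, which recycles glutathione, had 13.6, 10.7 and 11.3 CPM in overexpressor 2, against 6.32, 6.69 and 7.20 CPM in overexpressor 1 (adjusted p = 0.0995). The replicates of overexpressor 1 were tight in these genes, including replicate 1. TGG2, a myrosinase that breaks down glucosinolates and was picked after its values were seen, had 598, 525 and 518 CPM in overexpressor 2, against 1043, 918 and 928 CPM in overexpressor 1 (adjusted p = 0.0628).

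No jasmonate gene was called by edgeR, and the values of the list varied with replicate 1 of both lines. AOS, which makes the jasmonate precursor, had 2492, 1725 and 1723 CPM in overexpressor 2, against 899.9, 1339 and 1369.7 CPM in overexpressor 1. JAZ10, a repressor induced by jasmonate, had 47.7, 16.6 and 17.65 CPM in overexpressor 2, against 2.67, 11.8 and 11.3 CPM in overexpressor 1 (adjusted p = 0.277). CYP94B3, which inactivates the hormone, had 35.4, 11.6 and 10.4 CPM in overexpressor 2, against 0.393, 6.46 and 5.53 CPM in overexpressor 1, and VSP2, a storage protein induced by it, had 1493, 674 and 667 CPM in overexpressor 2, against 266, 729 and 748 CPM in overexpressor 1. In each, replicate 1 was the highest library of overexpressor 2, and in all 4 it was the lowest of overexpressor 1. Of 28 genes listed, 27 were tested, and DESeq2 called 2 higher, beside 2.85% of all genes it tested. The lines overlapped in 15 of the 27, while 11 were higher and 1 lower without overlap, beside 13.3% and 11.3% of all tested genes, and the median was 0.64. Without overexpressor 2 replicate 1 the median was 0.21, and without overexpressor 1 replicate 1 it was 0.42.

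Genes of rapid wounding and touch varied with the same library. The defence factor WRKY40 had 16.8, 3.37 and 4.31 CPM in overexpressor 2, against 4.79, 4.48 and 3.83 CPM in overexpressor 1 and 5.44, 37.6 and 8.88 CPM in wild type. The list's 16 tested genes had a median of 0.37, which was -0.05 without overexpressor 2 replicate 1. With all libraries 0 were called. Without overlap 3 were higher and 0 lower, beside 13.3% and 11.3% of all tested genes.

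No photosynthesis gene was called by edgeR, and the lines overlapped in 32 of 47. LHCB1.4, a chlorophyll-binding antenna protein, had 164, 98.5 and 102 CPM in overexpressor 2, against 939, 287 and 309 CPM in overexpressor 1 and 7956, 4695 and 10010.2 CPM in wild type. Replicate 1 was the highest library in both lines, and the log2 fold change of -2.07 ± 0.50 had an adjusted p of 0.119. LHCB2.3 had 186, 90.3 and 96.7 CPM in overexpressor 2, against 483, 265 and 274 CPM in overexpressor 1 (adjusted p = 0.136). Both belong to families of near-identical copies, so their counts are uncertain. RCA, the Rubisco activase, had 6983, 6207 and 6141 CPM in overexpressor 2, against 8717, 8110.0 and 8226 CPM in overexpressor 1. Of 48 genes listed, 47 were tested and DESeq2 called 2 lower, beside 2.15% of all genes it tested. Without overlap 0 were higher and 15 lower, beside 13.3% and 11.3% of all tested genes. Log2 fold changes ran from -2.07 to 0.55 with a median of -0.28, which was -0.16 without overexpressor 1 replicate 1 and -0.39 without overexpressor 2 replicate 1. Summed over the list, levels were 93993 to 112910 CPM in overexpressor 2, 109119 to 139026 CPM in overexpressor 1 and 200560 to 300938 CPM in wild type.

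Phosphate starvation genes had a median of -0.49 over 16 tested genes, which was -0.74 without overexpressor 2 replicate 1 and -0.47 without overexpressor 1 replicate 1. Without overlap 7 were lower, beside 11.3% of all tested genes. Of the list edgeR called 0 and DESeq2 called 1 lower, beside 2.15% of all genes it tested. MGD2, which makes galactolipid when phosphate is short, had 32.3, 24.2 and 22.9 CPM in overexpressor 2, against 41.7, 41.9 and 43.1 CPM in overexpressor 1 and 6.46, 10.4 and 7.003 CPM in wild type (adjusted p = 0.126). GDPD1, which frees phosphate from lipid remains, had 140.4, 77.1 and 80.5 CPM in overexpressor 2, against 178, 168 and 173 CPM in overexpressor 1 and 5.44, 24.4 and 5.87 CPM in wild type. The overexpressor 1 libraries were tight and above overexpressor 2, and wild type lay below both lines.

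Starch genes held no edgeR call, and in degradation the counts without overlap were near those of all genes. SEX4, a phosphatase that frees starch chains for breakdown, had 322, 399 and 402 CPM in overexpressor 2, against 229, 229.5 and 240.4 CPM in overexpressor 1 (log2 fold change 0.68 ± 0.13, adjusted p = 0.0885). The debranching enzyme ISA3 had 240.4, 384 and 401 CPM in overexpressor 2, against 186, 206 and 202 CPM in overexpressor 1, and the beta-amylase BAM3 had 216, 251 and 252 CPM in overexpressor 2, against 136, 176 and 188 CPM in overexpressor 1. BAM9 went the other way, with 5.66, 4.197 and 3.48 CPM in overexpressor 2, against 7.89, 7.31 and 7.61 CPM in overexpressor 1 (adjusted p = 0.114). Of 22 degradation genes 3 were higher and 3 lower without overlap, and of 18 synthesis genes 5 were higher and 4 lower, beside 13.3% higher and 11.3% lower of all tested genes. The medians were 0.08 and 0.11, and that of degradation was 0.0019 without overexpressor 1 replicate 1, that of synthesis 0.20 without overexpressor 2 replicate 1. In either list edgeR called 0, while DESeq2 called 3 higher and 1 lower in degradation and 1 higher in synthesis, beside 2.85% higher and 2.15% lower of all genes it tested. Among the synthesis genes that were higher without overlap, APL4, a subunit of the enzyme that makes the glucose donor for starch, had 138, 159 and 157 CPM in overexpressor 2, against 30.1, 125 and 119 CPM in overexpressor 1. GPT2, which brings glucose 6-phosphate into plastids, had 126, 216 and 219.8 CPM in overexpressor 2, against 39.2, 119.6 and 117 CPM in overexpressor 1. Overexpressor 1 replicate 1 was again the low library in both.

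Lists of sugar use and energy state held no gene called by edgeR. DESeq2 called 2 lower in sugar signalling, 2 in sugar starvation and 1 each in trehalose metabolism, plasma membrane carriers and sucrose and hexose metabolism, beside 2.15% of all genes it tested. With all 18 libraries edgeR called 1 lower in each of the lists of signalling, starvation and trehalose metabolism, beside 0.464% of all genes in that fit. SUC2, which loads sucrose into the phloem, had 301, 266 and 278 CPM in overexpressor 2, against 366, 385 and 375 CPM in overexpressor 1 (adjusted p = 0.121). The sucrose synthase SUS1 had 99.4, 77.9 and 78.7 CPM in overexpressor 2, against 106, 132 and 134 CPM in overexpressor 1 (adjusted p = 0.119). Of the sugar-starvation genes, DIN1 had 6.90, 4.25 and 3.69 CPM in overexpressor 2, against 20.5, 10.7 and 11.9 CPM in overexpressor 1, and MCCA, which helps break down leucine, had 26.7, 20.7 and 20.03 CPM in overexpressor 2, against 33.1, 39.9 and 38.2 CPM in overexpressor 1 (adjusted p = 0.0882). Among the listed subunits of the energy sensor kinase SnRK1, AKINBETA1 and SNF4 stood lower. AKINBETA1 had 5.38, 5.03 and 3.94 CPM in overexpressor 2, against 13.0, 6.80 and 7.53 CPM in overexpressor 1. SNF4 had 31.8, 37.0 and 35.3 CPM in overexpressor 2, against 48.6, 43.9 and 43.4 CPM in overexpressor 1. The other listed subunits, KIN10, KIN11 and AKINBETA2, are not described here, and the lines overlapped in 11 of 16 signalling genes. TPS11, of the trehalose 6-phosphate synthase family, had 16.1, 9.79 and 11.1 CPM in overexpressor 2, against 24.9, 19.5 and 17.5 CPM in overexpressor 1 (adjusted p = 0.134). Without overlap, 2 of 16 starvation genes were higher and 6 lower (median -0.31), 1 of 16 signalling genes was higher and 4 lower (-0.21), and 1 of 17 trehalose genes was higher and 3 lower (-0.09), beside 13.3% higher and 11.3% lower of all tested genes. The lines overlapped in 18 of 19 plasma membrane carriers (median -0.13), with 0 higher and 1 lower without overlap. They overlapped in 22 of 25 genes of sucrose and hexose metabolism (-0.13), with 1 higher and 2 lower. The shares of all tested genes are again 13.3% higher and 11.3% lower. The median of the plasma membrane carriers was -0.27 without overexpressor 2 replicate 1 and -0.081 without overexpressor 1 replicate 1.

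No clock gene was called by edgeR. GRP7, an RNA-binding protein under clock control, had 836, 855 and 869 CPM in overexpressor 2, against 415, 538 and 579 CPM in overexpressor 1 and 364, 481 and 474 CPM in wild type (log2 fold change 0.74 ± 0.16, adjusted p = 0.105). The morning factor CCA1 had 111, 130.3 and 134 CPM in overexpressor 2, against 137, 182 and 186 CPM in overexpressor 1, and the flowering repressor CDF2 had 6.95, 5.23 and 4.62 CPM in overexpressor 2, against 9.23, 9.11 and 8.15 CPM in overexpressor 1 (adjusted p = 0.115). Of 27 tested, edgeR called 0 and DESeq2 called 2 higher and 2 lower, beside 2.85% and 2.15% of all genes it tested. Without overlap 3 were higher and 10 lower, beside 13.3% and 11.3% of all tested genes, and the median was -0.12. The hour at which leaves were taken is not named in the labels.

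**Figure D5:**
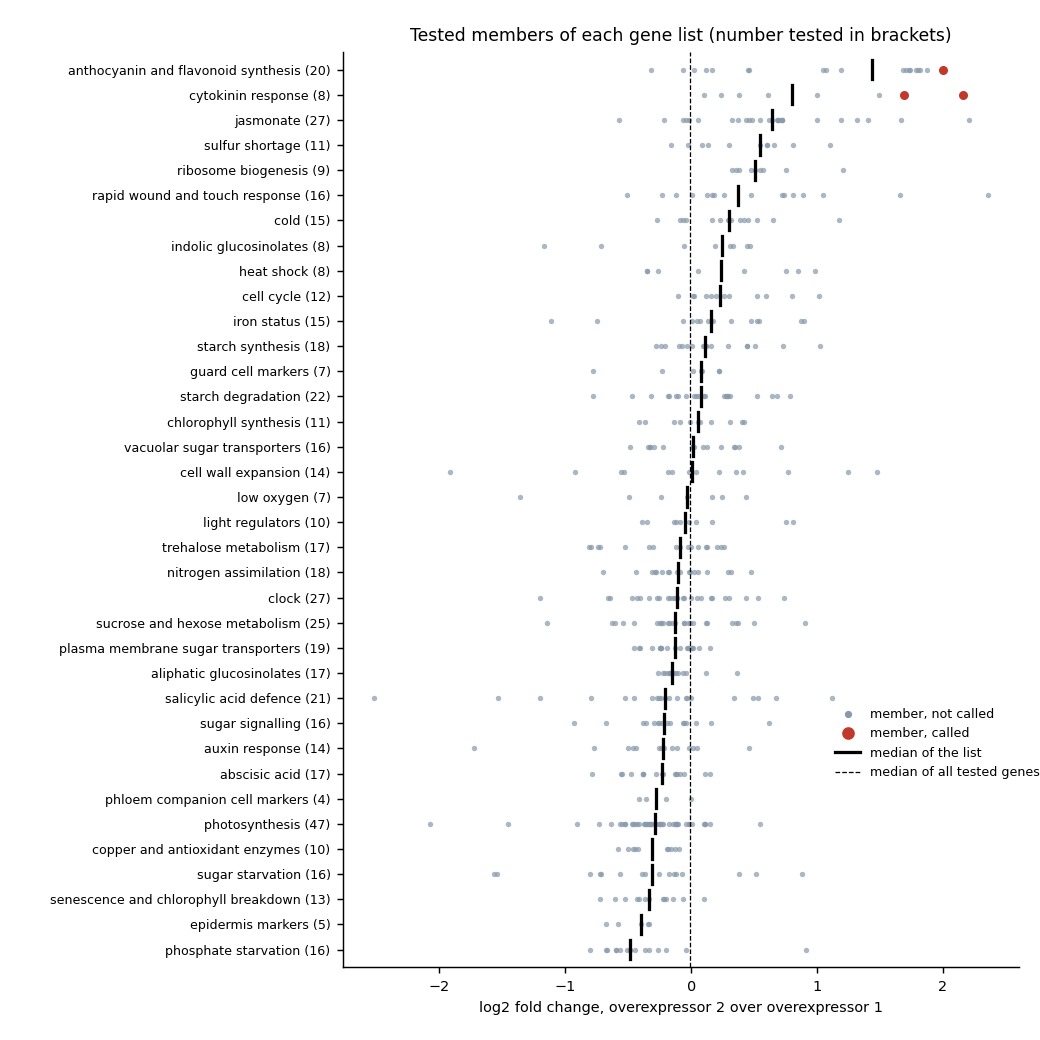
Log2 fold change of overexpressor 2 over overexpressor 1 for each tested member of the lists with at least 3 tested members, with the list's median as a black bar and the median of all tested genes as a dashed line. Called members, in red, are FLS1, ARR6 and ARR7, and list medians run from -0.49 for phosphate starvation to 1.43 for flavonoid synthesis.

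The other lists held no member called by edgeR. DESeq2 called 2 higher in cell wall expansion and 1 in cold, beside 2.85% of all genes it tested. It called 2 lower in copper and antioxidant enzymes and 1 each in light regulators, nitrogen assimilation, auxin and senescence, beside 2.15% of all genes it tested. In the other lists of this paragraph it called 0. Medians were 0.30 for 15 cold genes, 0.25 for 8 of indolic glucosinolates, 0.24 for 8 of heat shock, 0.23 for 12 of the cell cycle, 0.16 for 15 of iron status and 0.05 for 11 of chlorophyll synthesis. They were 0.01 for 14 genes of cell wall expansion, -0.04 for 7 of low oxygen, -0.05 for 10 light regulators, -0.10 for 18 of nitrogen assimilation and -0.15 for 17 of aliphatic glucosinolates. They were -0.21 for 21 genes of salicylic acid defence, -0.22 for 14 of auxin, -0.23 for 17 of abscisic acid, -0.31 for 10 of copper and antioxidant enzymes and -0.34 for 13 of senescence. Several of these medians rested on 1 library. Without overexpressor 1 replicate 1 the median was 1.03 for iron status, 0.10 for cold, 0.091 for indolic glucosinolates, -0.0037 for heat shock and 0.084 for salicylic acid defence. It was -0.49 for abscisic acid, -0.20 for senescence and -0.13 for auxin. Without overexpressor 2 replicate 1 it was -0.0039 for indolic glucosinolates, 0.30 for iron status, -0.39 for abscisic acid, -0.36 for salicylic acid defence and -0.16 for low oxygen. Over all 40 lists, 3 of 557 tested genes were called, beside 0.0535% of all tested genes. The lists were chosen with earlier results of these data known. The cold gene KIN1 had 70.7, 102 and 102 CPM in overexpressor 2, against 14.6, 55.4 and 51.5 CPM in overexpressor 1, but it did not pass (adjusted p = 0.372).

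Markers of other cell types were checked in the same fit, and edgeR called none. DESeq2 called 2 of 4 phloem, 2 of 5 epidermis and 1 of 7 guard cell markers lower, beside 2.15% of all genes it tested. Summed over 4 phloem companion cell markers, levels were 842 to 892 CPM in overexpressor 2, 1068 to 1094 CPM in overexpressor 1 and 753 to 815 CPM in wild type. Epidermis markers summed to 556 to 676 CPM in overexpressor 2, 830.3 to 943 CPM in overexpressor 1 and 689.9 to 801 CPM in wild type. Of 5 tested, 3 were lower without overlap, beside 11.3% of all tested genes. Among them, CUT1, a wax synthesis enzyme, had 464, 358 and 361 CPM in overexpressor 2, against 599, 651 and 640.2 CPM in overexpressor 1 (adjusted p = 0.105). Guard cell markers summed to 74.9 to 75.6 CPM in overexpressor 2, 88.0 to 94.2 CPM in overexpressor 1 and 57.0 to 66.3 CPM in wild type. Of the 7, only the potassium channel KAT1 was lower without overlap (adjusted p = 0.0782), beside 11.3% of all tested genes. The median log2 fold change was 0.08 for the guard cell markers, opposite to their sum, and -0.28 for phloem and -0.40 for epidermis markers. In whole leaves fewer cells of a type and less RNA per cell cannot be told apart, and the part of these levels in the called genes was not tested. The flower, seed, root and meristem markers were at or near 0, with 2 of 16 abundant enough to test.

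Several genes just outside the threshold had clear separation and were picked after their values were seen. XTH31, a cell wall enzyme, had 86.7, 192 and 192 CPM in overexpressor 2, against 42.8, 28.2 and 27.5 CPM in overexpressor 1 and 116, 75.4 and 117 CPM in wild type (log2 fold change 2.26 ± 0.33, adjusted p = 0.0656). Replicate 1 was the low library of overexpressor 2 and the high library of overexpressor 1. BGLU1, a glycosyl hydrolase, had 66.2, 73.4 and 75.3 CPM in overexpressor 2, against 22.8, 33.9 and 38.1 CPM in overexpressor 1 (adjusted p = 0.0517). Without overexpressor 1 replicate 1, XTH31 and BGLU1 passed, with adjusted p-values of 0.0446 and 0.0224. AGO7, an Argonaute protein that acts in trans-acting small RNA production and leaf shape, had 9.53, 11.4 and 9.39 CPM in overexpressor 2, against 21.1, 17.3 and 16.3 CPM in overexpressor 1 and 17.3, 17.3 and 17.3 CPM in wild type (adjusted p = 0.0631). AT5G48650, annotated as a nuclear transport factor 2 family protein, had 0.505, 1.503 and 1.45 CPM in overexpressor 2, against 0.0393, 0.0735 and 0.125 CPM in overexpressor 1, and was listed at 0 in all wild-type libraries (adjusted p = 0.0885 between the lines). These levels are near the floor, and AT5G48650 had enough counts for a test only through overexpressor 2. Neither its separation nor its adjusted p is therefore read as a result.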

How the data were processed

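RNA from leaves was sequenced as directional libraries, per the labels' protocols. The deposited table holds read counts per gene, as the authors made them: fastp (version not given), HISAT2 2.0.5, StringTie 1.3.3 and the TAIR10 build are named in the submitters' processing notes, while for the counting step neither tool nor strand setting is named (not given in the sources used here). Counts of 9 leaf libraries were filtered with filterByExpr (18703 genes kept), TMM scaled and fitted without a replicate block, 1 mean for each of the 3 groups, in edgeR 4.0.16 (robust quasi-likelihood test, 6 residual degrees of freedom, R 4.3.3), with Benjamini-Hochberg adjustment over all tested genes. A gene was called at an adjusted p under 0.05. SE is the size of the log2 fold change over the root of its F statistic. The procedure was tested on simulated data with independent libraries, which does not cover the closeness of replicates 2 and 3 of each line. DESeq2 1.42.0 and limma 3.58.1 served as alternatives. Totals ranged from 17318810 to 26157641 counts. Deviations of same-numbered libraries of the lines correlated at -0.09, -0.05 and -0.04, and those of differently numbered libraries at -0.07 to 0.08. With replicates 2 and 3 so close, these are not separate checks. Whether the numbers pair the lines cannot be told from them. Symbols, positions and promoter sequences are from RefSeq TAIR10.1.

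The members, the 40 gene lists and the tests were chosen with earlier results of these data known. Named genes were 12 sugar genes whatever their result, called genes with a symbol ranked by fold change (at least 5 CPM, no overlap) or by level, and called list members; all others are list members or genes picked after their values were seen. No count, median or called share of a list is a test of that list.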

Additional observations from a re-analysis of the deposited data

How the results depend on the processing

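Calls between the lines were few and unstable, against 6 higher and 4 lower as reported. Size factors from RLE and a filter of 1 CPM in 3 libraries gave 6 and 4, thinning to the smallest total gave 4 and 4. Higher and lower calls were 11 and 2 with library size only, 410 and 310 with DESeq2, 3 and 4 with limma-voom, 14 and 11 with no filter on low counts, 73 and 18 with the lines alone, 73 and 91 with all 18 libraries, and 3 and 4 without the 100 most abundant genes. They were 0 and 0 with replicates 2 and 3 of each line summed, in the fit with wild type (1244 at an unadjusted p under 0.05) and in that of the lines alone (1196), which was added after seeing the data. At an adjusted p under 0.01 they were 0 and 1, and at a log2 fold change of at least 1 they were 5 and 1. Leaving out 1 library gave 0 to 342 higher and 0 to 150 lower calls. The replicate block gave 0 and 1, and 0 and 0 with the lines alone (added after seeing the data). Same-numbered libraries of the lines did not deviate together. With replicates 2 and 3 of each line so close, this does not settle whether the numbers pair the lines. The causes were not tested.

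The log2 fold change of ERDL4 was 0.72 as reported, 0.72 and 0.71 under the 2 blocks, and 0.69 to 0.74 when 1 library was left out. It passed the threshold with library size only (0.78), DESeq2 (0.72), the lines alone (0.72), all 18 libraries (0.68) and without wild-type replicate 2 (0.72).

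Fold changes of other named genes kept their direction in all settings except for 7 genes, none of them called. With all 18 libraries TST1 was at -0.017, VGT1 at -0.031 and SWEET17 at -0.034. With close replicates summed, with and without wild type, TST1 was at -0.093 and -0.10, HXK1 at 0.0057 and 0.0035, and ANAC089 at 0.062 and 0.060. HXK1 was at 0.048 with library size only and 0.018 after thinning, and SWEET17 at -0.0025 with no filter and -0.0016 after thinning. With 1 library left out the values ran from -0.055 to 0.17 for TST1, -0.079 to 0.31 for TST2, -0.058 to 0.051 for VGT1, -0.16 to 0.11 for SWEET17, -0.049 to 0.034 for HXK1, -0.20 to 0.023 for ANAC089 and -0.19 to 1.26 for WRKY40.

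Depth limits low genes: the overexpressor 2 libraries are all shallower than those of overexpressor 1, and intervals on counts cover counting error only. With 3 libraries per line, of which 2 are close, a gene that was not called is not shown to be equal.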

Other observations

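The leaf-disc libraries of the series, in which discs were held overnight in 1% fructose, 1% glucose or 1% mannitol, give levels of the same called genes in other conditions. These values are CPM scaled over all 18 libraries and no test was run on them here. AT5G57120 had 85.8, 89.4 and 80.2 CPM in fructose and 146, 105 and 139 CPM in glucose, against 37.9, 42.9 and 39.8 CPM in mannitol. NADK2 had 74.1, 70.4 and 64.7 CPM in fructose and 65.6, 64.1 and 60.5 CPM in glucose, against 145, 143 and 132 CPM in mannitol. AT5G35970 had 139, 109 and 156 CPM in fructose and 38.2, 52.4 and 40.0 CPM in glucose, against 188, 185 and 154 CPM in mannitol. In these 3 genes the sugar libraries did not overlap the mannitol libraries, except that 1 fructose library of AT5G35970 was above the lowest mannitol library. ARR6, higher in overexpressor 2 leaves, had 0.515, 1.42 and 1.18 CPM in fructose and 1.72, 1.46 and 2.66 CPM in glucose. It was higher in mannitol, with 2.98, 3.62 and 9.28 CPM. AT3G06355 had 32.0 to 42.4 CPM in fructose and 41.8 to 47.8 CPM in glucose, against 66.3 to 87.6 CPM in mannitol. In NIP6;1, AT4G13577 and AT3G29644 the fructose and mannitol libraries overlapped. Glucose libraries were below all mannitol libraries in NIP6;1 and above them in AT4G13577. ARR7 stayed between 0.787 and 3.03 CPM in all 9 disc libraries, and FLS1 between 0 and 1.93 CPM. ERDL4 itself had 35.4, 35.3 and 31.4 CPM in fructose and 20.01, 22.5 and 26.2 CPM in glucose, against 46.7, 44.6 and 36.5 CPM in mannitol.

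Some genes that leaves are known to express are listed at or near 0 in every leaf library and were not tested. F3H, a core enzyme of the flavonoid pathway, had at most 0.104 CPM in a library, and MYC2 and LHCB1.5 were at 0. In the TAIR10.1 annotation 94.5% of F3H overlaps AT3G51238 on the other strand, 98.5% of the jasmonate factor MYC2 overlaps AT1G32630 and 100% of LHCB1.5 overlaps AT2G08665. The part of these overlaps in the listed levels was not tested.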
